A study of Mus musculus with 40 samples.

Results

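The hippocampus, a temporal lobe structure that takes part in psychomotor seizures, was profiled in mice that carried the gut microbes of children with epilepsy, and the genes measured well enough for a gene-by-gene account are described here. These are the 4653 genes of 47643 in the hippocampal table that averaged at least 50 raw read counts over 20 libraries, 10 from mice given a donor's stool sampled before the ketogenic diet (pre-KD) and 10 from mice given the same donor's stool sampled on the diet (post-KD). The rule used the mean over both conditions and not their difference. Of these genes 4534 were annotated as protein coding, and together they held 88.1% to 90.1% of the counts of a library. All recipients were wild-type, germ-free mice of the outbred Swiss Webster stock, described in the methods as females of 6 to 8 weeks, and none of them ate the ketogenic diet: both groups received the same control chow, and brains were taken on day 4 after colonization. Each library was a pool of tissue from 6 recipients of 1 stool sample, so the replicate is the recipient cohort, single animals cannot be compared, and the donor number joins 1 pre-KD and 1 post-KD cohort.

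As background, hippocampal excitability is set by glutamatergic pyramidal and granule cells, by GABAergic interneurons that restrain them, and by the ion channels, transporters and metabolic enzymes of neurons and glia. Granule cells of the dentate gyrus are classically viewed as a gate on activity that enters the hippocampus, and CA3 and CA1 pyramidal cells carry it onward. The study asked how colonization with post-KD microbes may alter brain function in mice tested for resistance to 6-Hz seizures, and the comparison below gives transcript levels only. In bulk tissue, fewer cells of a type and less RNA per cell cannot be told apart.

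Between 1140756 and 1947416 reads were counted on genes per hippocampal library. Permutation tests of 4 library measures between conditions gave p = 0.106 for total counts, 0.490 for the share on the noncoding locus *Gm42418*, 0.551 for the share on mitochondrially encoded genes and 0.459 for the number of genes with a count (two-sided, adjusted p from 0.423 to 0.551). Some libraries stood apart before any gene was compared. In 4 libraries, both cohorts of donors 9 and 10, there were 14 to 42 counts of *Xist*, the transcript of the inactive X chromosome, against 641 to 1167 in the other 16, and 41 to 77 counts of the Y-linked *Eif2s3y* against 0 to 1, although the methods give female recipients. The Y-linked *Ddx3y* split the libraries less cleanly, with 89 to 114 counts against 0 to 27. The same cohorts stood apart in the frontal cortex, with 6 to 17 against 487 to 1191 *Xist* counts. They were 2 of 10 libraries in each condition, and p values of named genes that reach 0.05 without them are given below. The number of genes with a count ranged from 10223 to 15750 and was under 11000 in 3 libraries (pre-KD donors 5 and 7, post-KD donor 6), which were likewise left out in an alternative added after the data were seen.

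Hippocampal transcript levels in post-KD cohorts were estimated near those of pre-KD cohorts for nearly all well-measured genes. The median log2 fold change, post-KD minus pre-KD, was -0.02, with 2175 genes higher and 2478 lower. For 4356 genes (93.6%) the change was under 0.5 in size on the log2 scale, and 4 genes exceeded 1, 2 in each direction. After Benjamini-Hochberg adjustment over all 17529 genes tested, edgeR's quasi-likelihood test passed 1 of the 4653 genes (0.0215%, and 0.0057% of all tested) at 0.05, the splicing factor *Cwc22*, which averaged 17.8 counts pre-KD and 134 post-KD and so met the rule through its high condition alone, and with the donor as a block it passed 0. At an unadjusted p under 0.05, the threshold named in the study's methods, 148 genes (3.18%) differed without the block, 64 higher (1.38%) and 84 lower (1.81%), and 150 (3.22%) with it, 54 higher (1.16%) and 96 lower (2.06%). The 2 sets shared 101 genes. Across all genes tested, the share past that threshold was 10.1% without the block (4.57% higher and 5.48% lower) and 1.99% with it (0.605% and 1.38%), and among the 12876 genes averaging under 50 counts it was 12.5%.

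The split of these genes into higher and lower varied with the scaling and the tool. RLE size factors in edgeR gave 80 higher and 77 lower genes. DESeq2, the tool the study used, gave 113 (2.43%) and 100 (2.15%), together 4.58%, beside 3.42% of all genes tested (1.68% higher and 1.74% lower). DESeq2 with the donor block gave 126 (2.71%) and 143 (3.07%), together 5.78%, beside 5.31% of all genes (2.14% and 3.17%). Limma-voom with quality weights gave 73 (1.57%) and 147 (3.16%), together 4.73%, beside 5.49% of all genes (1.63% and 3.86%). EdgeR on the 4653 genes alone gave 78 (1.68%) and 76 (1.63%), together 3.31%. At an adjusted p under 0.05 these last 4 passed 0 of the 4653 genes, and limma-voom passed 1 gene of all tested (0.0057%). Of the 148 genes, 134 were also under 0.05 in DESeq2 and 77 in all of edgeR, blocked edgeR, DESeq2 and limma-voom. Without donors 9 and 10 edgeR gave 82 higher and 117 lower genes, sharing 95 with the 148, and without the 3 libraries of few detected genes 83 and 114, sharing 94. For these fits and that with RLE size factors no share over all genes tested stands beside the counts. Nothing is read from their totals. The smallest adjusted p after that of *Cwc22* was 0.0774, so the differences below other than *Cwc22* rest on unadjusted p values. That of *Cwc22* passed in edgeR's test without the block and not with it, in DESeq2 or in limma-voom, and all are given as levels, not as established changes.

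**Figure D1:**
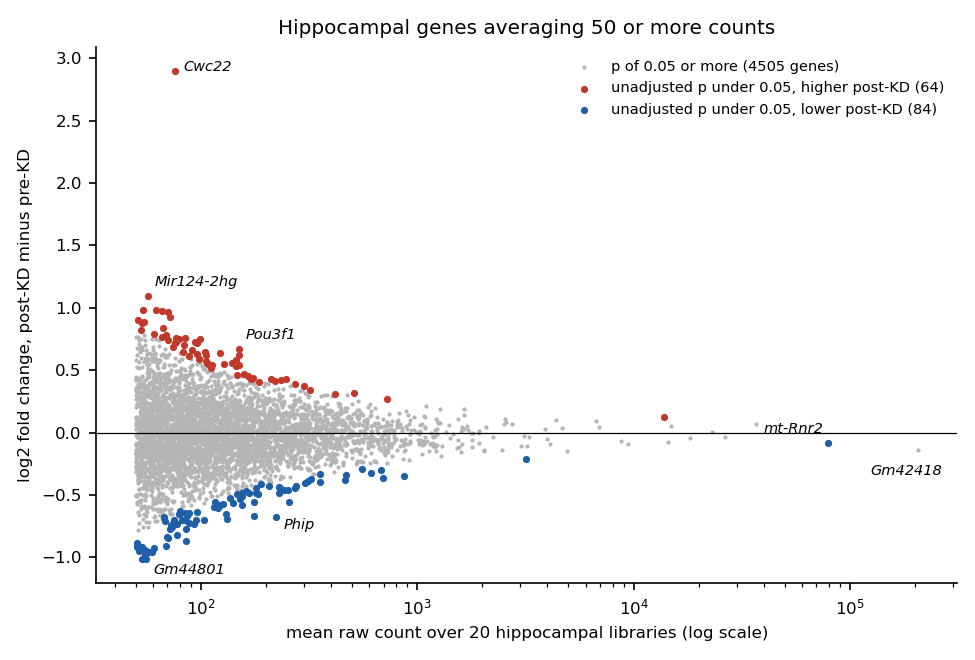
Mean raw count over 20 libraries (horizontal, log scale) against the log2 fold change, post-KD minus pre-KD (vertical), for 4653 genes, 1 point each. Red and blue points are the 64 higher and 84 lower genes at an unadjusted p under 0.05 in edgeR, grey points the other 4505, and *Cwc22* is the point at 2.90.

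How small a difference could be seen depended on the depth of a gene. The 95% confidence interval of the log2 fold change lay wholly between -1 and 1, less than a 2-fold difference in either direction, for 3833 genes (82.4%), and between -0.5 and 0.5 for 939 (20.2%). For 2131 genes averaging 50 to 100 counts, 63.8% of intervals lay within a 2-fold difference, for 1374 genes of 100 to 200 counts 96.6%, for 823 genes of 200 to 500 counts 99.9% and for 325 genes of 500 or more counts 100%. The share of genes under an unadjusted p of 0.05 was alike in these ranges, at 3.24%, 3.20%, 3.04% and 3.08%. The spread between libraries of a condition, which came from different donors and separate pools, set that precision. The median standard deviation (SD) of log2 CPM, counts scaled to TMM-normalized library totals, was 0.80 in the lowest count range and 0.28 in the highest. As a scale for these values, and not as a test, counting alone would give 0.18 and 0.05.

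**Figure D2:**
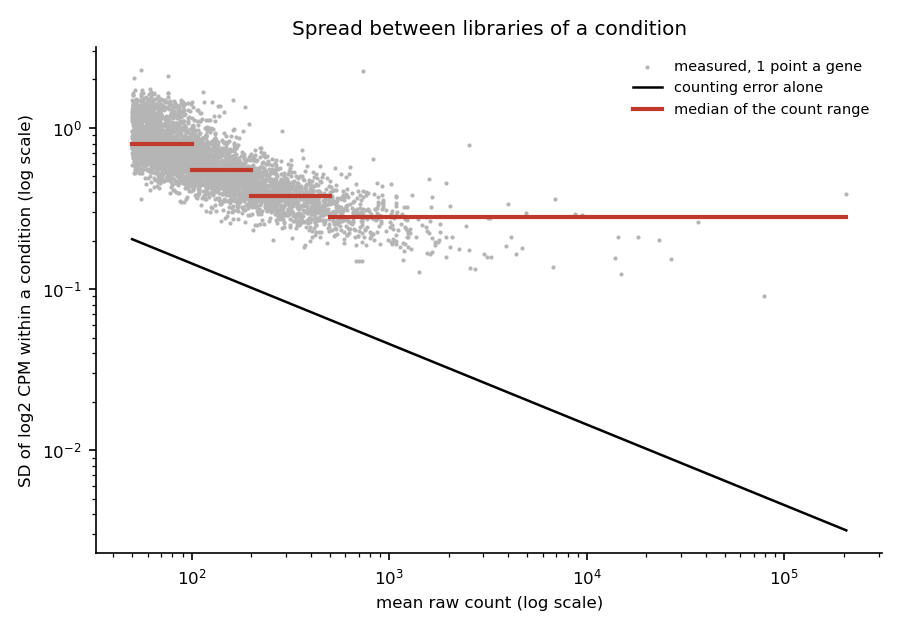
SD of log2 CPM between libraries of a condition (vertical, log scale) against mean raw count (horizontal, log scale), 1 grey point per gene. Red bars are the medians of 4 count ranges, from 0.80 to 0.28, and the black line is the SD that counting alone would give, drawn as a scale.

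The one gene past the adjusted threshold, *Cwc22* (ENSMUSG00000027014, chromosome 2 from 77881159 to 77946375 of GRCm38, minus strand), encodes a spliceosome-bound factor needed to place the exon junction complex on spliced RNA. Pre-KD libraries of donors 1 to 10 held 28.8, 11.9, 3.86, 2.53, 15.4, 4.08, 6.84, 15.6, 0 and 25.4 CPM of *Cwc22*, in that order. The post-KD libraries of the same donors held 20.9, 93.0, 32.6, 293, 51.4, 0.810, 0, 100.1, 235 and 25.4 CPM. Every pre-KD library was at 28.8 CPM or lower, whereas post-KD libraries spread from 0 to 293 CPM, with those of donors 4 and 9 far above the rest, and the groups overlapped. The log2 fold change of *Cwc22* was 2.90 (standard error (SE) 0.49, adjusted p = 0.000591 in edgeR's test), post-KD exceeded pre-KD in 6 donors of 10, and the adjusted p was 0.811 in DESeq2 and 0.183 with the 4653 genes tested alone. The log2 fold change was 1.90 with the donor block (adjusted p = 0.712), 2.32 without donor 4 (0.109), 2.43 without donor 9 (0.0847) and 2.73 without donors 9 and 10 (0.0201). Its unadjusted p was 0.0663 in limma-voom and 0.0545 in DESeq2 with the block. The adjusted calls of this edgeR test without the block may hold more unchanged genes than the threshold allows. In the frontal cortex of the same cohorts the post-KD libraries of donors 4, 9, 2 and 8 were again the highest for *Cwc22*, at 276, 160, 113 and 106 CPM, and every pre-KD library was at 23.9 CPM or lower. The post-KD libraries of donors 6 and 7, at 0.810 and 0 CPM in the hippocampus, held 41.5 and 38.0 CPM there. The *Cwc22* interval also holds *Gm13727* on the same strand, and how reads that match several copies of a gene were assigned is not known here. Extra copies of *Cwc22* are known from some mouse stocks, and whether these mice carried them was not tested.

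Among the genes ranked next by p, 2 were hosts of microRNAs abundant in neurons, and they differed in opposite directions. *Mir124-2hg*, the noncoding host of a copy of miR-124, ranged over 7.76 to 42.0 CPM (median 23.7) pre-KD and 28.7 to 100.4 CPM (median 49.2) post-KD. Post-KD exceeded pre-KD in 9 donors of 10 (log2 fold change 1.09, SE 0.38, p = 0.00474, adjusted p = 0.0810), although the ranges of the groups overlapped. *Gm26871*, a processed transcript at chromosome 3 from 118430324 to 118530022 that spans the *Mir137* locus, was lower post-KD, at 82.2 to 233 CPM (median 128) pre-KD against 61.2 to 126 CPM (median 82.1) post-KD (log2 fold change -0.67, SE 0.21, p = 0.00197). Its adjusted p was 0.0774, and 0.0449 with no filter on low counts. Without donors 9 and 10 the *Gm26871* difference was -0.35 with p = 0.150. The mature strands of miR-137, which these libraries did not measure, are printed from RefSeq (GRCm38.p6) with the seed, bases 2 to 8, in capitals, to identify the microRNA whose locus lies within the *Gm26871* interval. Counts per gene do not show whether any read fell there.
miR-137-3p, chr3:118433901-118433923, plus strand: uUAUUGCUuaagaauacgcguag
miR-137-5p, chr3:118433865-118433887, plus strand: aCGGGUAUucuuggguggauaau

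The 10 genes with the smallest p among those higher post-KD included regulators of neuronal identity and wiring. *Pou3f1*, a POU-domain transcription factor and a marker of CA1 pyramidal cells, ranged over 37.4 to 149 CPM (median 62.7) pre-KD and 59.8 to 222 CPM (median 113) post-KD, higher for 8 of 10 donors with p under 0.05 in all 21 alternatives (log2 fold change 0.67, SE 0.24, p = 0.00542). *Sema6a*, a transmembrane semaphorin that guides axons, ranged over 8.22 to 68.8 CPM (median 28.9) pre-KD and 25.1 to 104 CPM (median 61.4) post-KD, higher for 8 donors (log2 fold change 0.96, p = 0.00694). *Myh9*, a non-muscle myosin heavy chain, went from a median of 45.0 CPM pre-KD to 89.5 CPM post-KD and was higher for 9 donors (p = 0.00940). For all 3 the groups overlapped, the highest pre-KD library lying above the lowest post-KD library. *Gfpt1*, the rate-limiting enzyme of hexosamine synthesis, had medians of 71.0 and 105 CPM (p = 0.0116), and *Creg2*, a glycoprotein expressed in brain, 80.6 and 104 CPM (p = 0.0118). The noncoding *Gm44644* (median 35.6 CPM pre-KD and 55.9 CPM post-KD, p = 0.00916) and the nuclear proteins *Mier3* (26.9 and 64.7 CPM, p = 0.0129) and *Zfp326* (60.4 and 103 CPM, p = 0.0149) complete the set. *Mier3* had p = 0.117 without donors 9 and 10, and *Myh9* p = 0.0569 without the 3 libraries of few detected genes.

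The 10 genes with the smallest p among those lower post-KD were led by *Phip*, which encodes a bromodomain protein that binds insulin receptor substrate. *Phip* ranged over 90.3 to 323 CPM (median 167) pre-KD and 53.9 to 183 CPM (median 116) post-KD and was lower for 9 of 10 donors (log2 fold change -0.68, SE 0.21, p = 0.00132, adjusted p = 0.0774, and 0.0449 with no filter on low counts), with a difference of -0.38 and p = 0.0692 without the 3 libraries of few detected genes. *Gas5*, a noncoding host of small nucleolar RNAs, ranged over 143 to 310.4 CPM (median 175) and 54.7 to 242 CPM (median 122) (log2 fold change -0.55, p = 0.00711), and the difference was -0.30 with p = 0.173 without donors 9 and 10. Both genes overlapped widely between conditions. *Golga2*, the cis-Golgi matrix protein GM130, ranged over 76.3 to 142 CPM (median 104) and 17.1 to 157 CPM (median 60.3) (p = 0.00788), its highest library being a post-KD one. *Ccl27a*, a chemokine, had medians of 66.6 CPM pre-KD and 43.3 CPM post-KD (p = 0.00834), *Nebl*, an actin-binding protein, 80.9 and 54.1 CPM (p = 0.0130), and *Kctd4*, a BTB-domain protein, 62.2 and 37.4 CPM (p = 0.0130). The remaining members, *Gnaz*, *Cfdp1* and *Gm44562*, are described below. With 1 donor left out, p was 0.05 or more for *Sema6a* (without donor 4), *Gas5* (donor 9), *Gfpt1* and *Gm44562* (donor 6), and *Cfdp1*, *Nebl* and *Kctd4* (donor 7), and *Nebl* had p = 0.104 without the 3 libraries of few detected genes. Of the 20 genes, 14 overlap another annotated gene and 10 of them one on the opposite strand. The strand setting of the counting is not given in the sources used here, so reads of *Gas5* and *Zbtb37*, *Golga2* and *Swi5*, *Gnaz* and *Rsph14*, or *Ccl27a* and *Il11ra1* may not have been told apart.

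No gene was higher post-KD in all 10 donors, and 3 genes (0.0645%) were lower in all 10. *Lhfpl4*, an auxiliary subunit that holds GABA-A receptors at inhibitory synapses, ranged over 86.6 to 159 CPM (median 101) pre-KD and 58.0 to 97.9 CPM (median 72.1) post-KD. The lowest pre-KD library of *Lhfpl4* lay below the 2 highest post-KD ones, and the difference was -0.56 on the log2 scale (SE 0.23, p = 0.0151, adjusted p = 0.218, p = 0.0322 with the block). *Gm44562*, an unverified transcript model within *Ube3a* on the strand opposite to it, ranged over 27.8 to 91.1 CPM (median 54.3) and 13.3 to 61.2 CPM (median 26.6) (log2 fold change -0.91, p = 0.0112). *Ube3a*, a ubiquitin ligase named here after its values were seen, had medians of 238 CPM pre-KD and 223 CPM post-KD (p = 0.860). *Gm44801*, another such model, within *Fam155a* on the same strand, ranged over 27.8 to 75.0 CPM (median 47.5) and 0.650 to 42.9 CPM (median 27.7) (log2 fold change -1.01, p = 0.0142). For 0 genes did the 10 post-KD libraries lie wholly outside the range of the 10 pre-KD libraries.

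**Figure D3:**
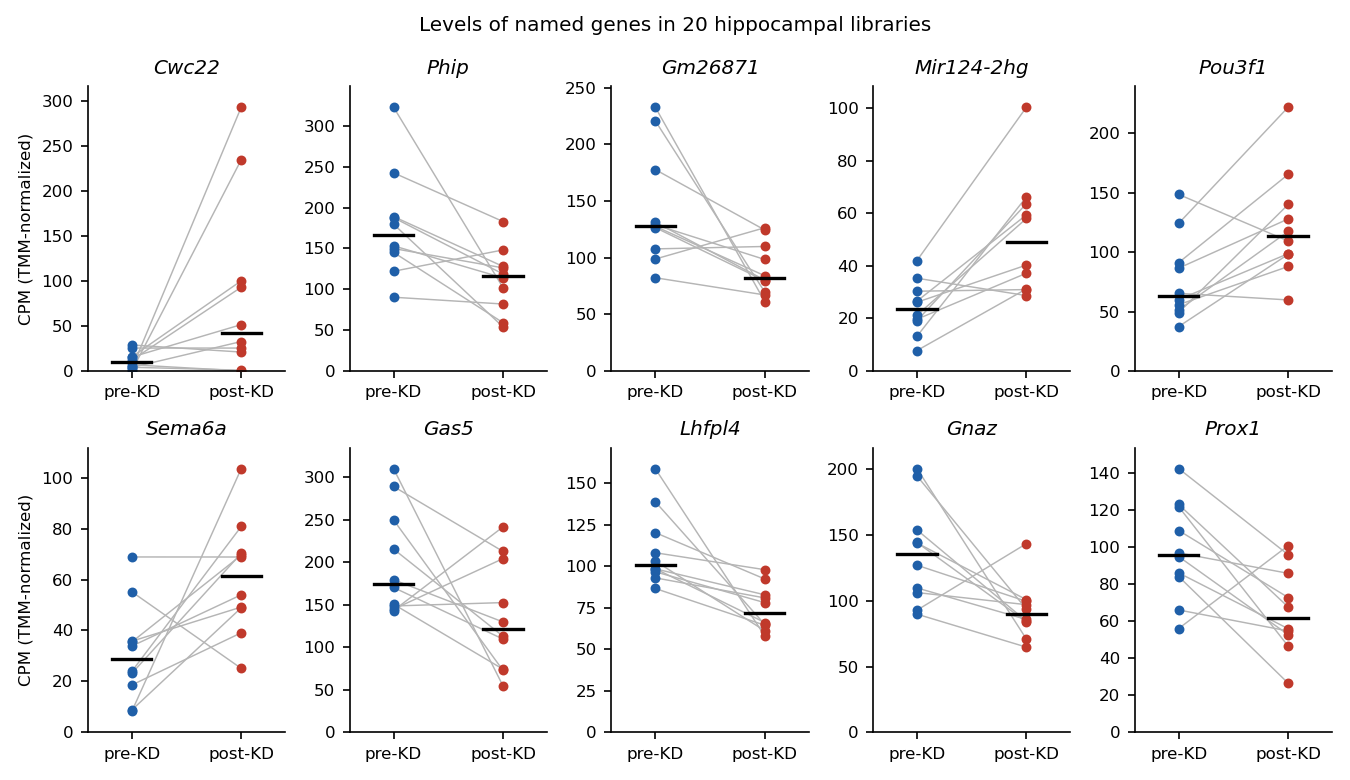
CPM (vertical, linear from 0) of 10 named genes in pre-KD (blue) and post-KD (red) hippocampal libraries, 10 of each, with grey lines joining the cohorts of a donor and black bars at the medians. The conditions overlap in every panel, and the post-KD *Cwc22* libraries spread from 0 to 293 CPM.

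Function lists placed 939 of the genes into pathways and cell types, and 37 of these (3.94%) were under an unadjusted p of 0.05, beside 3.18% of all 4653. The medians of 38 function lists ran from -0.08 to 0.29 on the log2 scale, 33 of them within 0.1 of zero, and 22 lists had 0 genes under an unadjusted p of 0.05. Only *Cwc22* among all list members passed the adjusted threshold in edgeR's test.

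**Figure D4:**
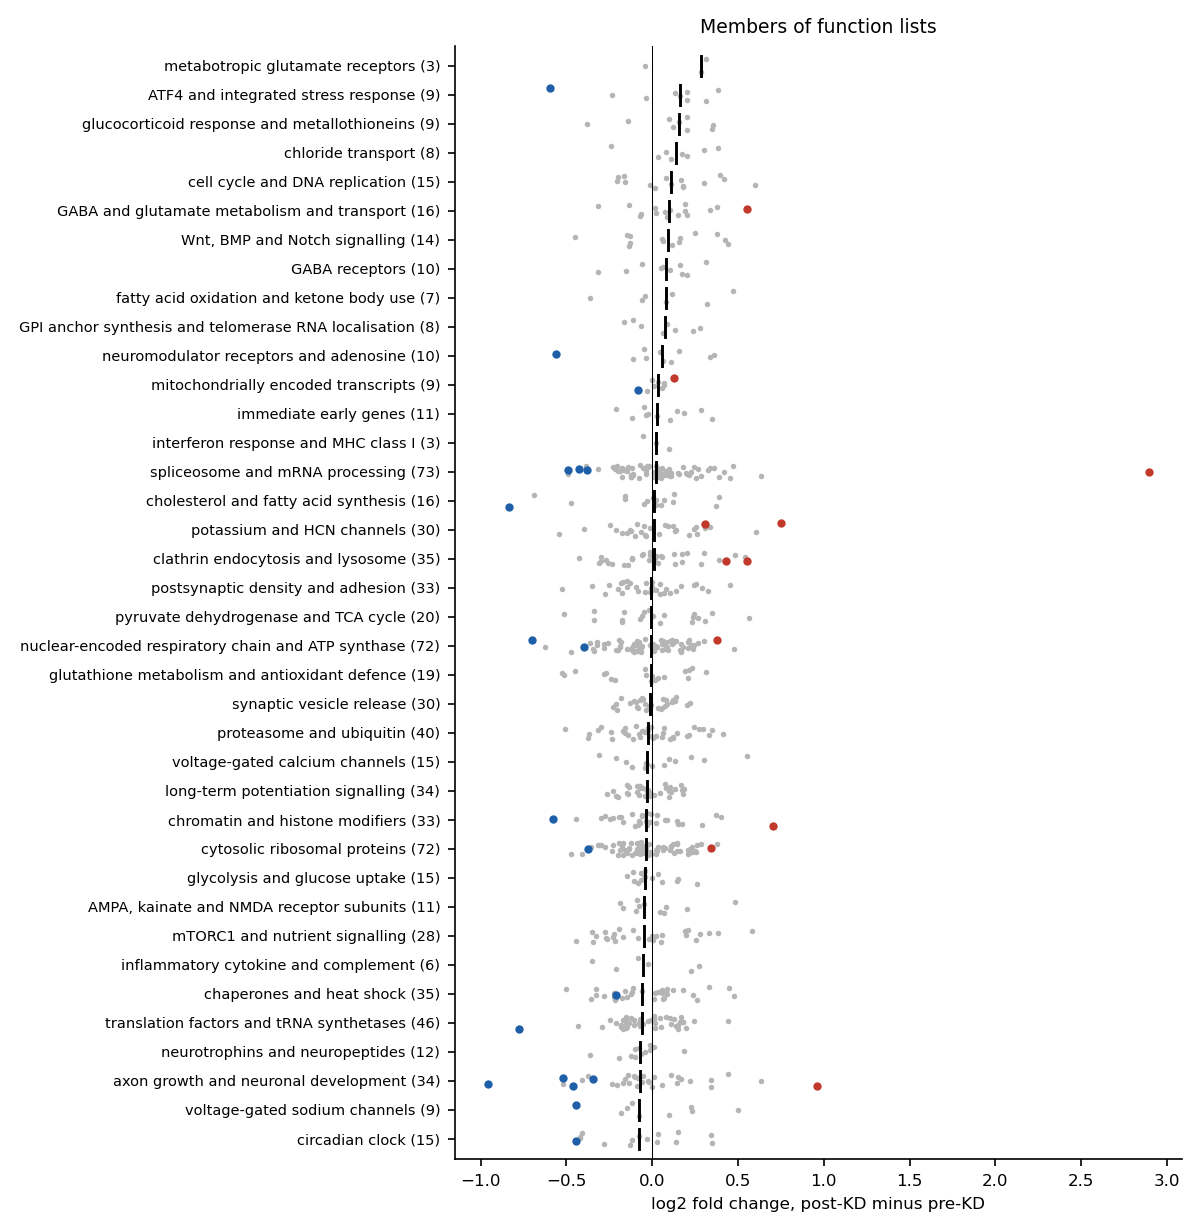
Log2 fold change, post-KD minus pre-KD, of each gene averaging 50 or more counts in 38 function lists, with the number of such genes in brackets and a black bar at the median. Red and blue points were under an unadjusted p of 0.05, and list medians lie between -0.08 and 0.29.

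Excitatory transmission held no gene under an unadjusted p of 0.05 in any of its lists. Of 11 subunits of AMPA, kainate and NMDA receptors, the ligand-gated channels of glutamate, 5 were higher and 6 lower, with 0 and 0 under an unadjusted p of 0.05 (median -0.05). *Gria2*, the AMPA receptor subunit that sets calcium permeability, ranged over 880.5 to 1129 CPM (median 926) pre-KD and 746 to 1085 CPM (median 915) post-KD (log2 fold change -0.05, 95% interval -0.26 to 0.17), and *Grin1*, the obligatory NMDA receptor subunit, had an interval of -0.46 to 0.12. All 3 metabotropic receptors measured, *Grm5* and *Grm7* among them, were above p = 0.05. The 30 genes of synaptic vesicle release had a median of -0.02 and 30 of 30 intervals within a 2-fold difference, with *Syt1*, the calcium sensor of fast release, at -0.11 (-0.28 to 0.07). Of 33 postsynaptic density and adhesion genes 0 were under 0.05, with *Dlgap1* at 0.05 (-0.16 to 0.25). Long-term potentiation is among the processes the study names. Of 34 genes of that signalling 0 were under 0.05, all 34 intervals lay within a 2-fold difference, and *Camk2a*, the kinase central to potentiation, was -0.15 (-0.33 to 0.03). The 11 immediate early genes measured, transcripts induced by neuronal activity such as *Jund* and *Per1*, also had 0 under 0.05.

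Genes of inhibition and of transmitter handling had list medians of at most 0.14 on the log2 scale. The 10 GABA receptor subunits had 0 under an unadjusted p of 0.05 (median 0.08), with *Gabbr1*, of the metabotropic receptor, at -0.15 (-0.41 to 0.11). The 16 genes of GABA and glutamate metabolism and transport had a median of 0.10, and the number of them under 0.05 is not reported here. *Slc1a2*, the main astrocytic glutamate transporter, was 0.09 (-0.09 to 0.27). Chloride transport, which sets the reversal potential of GABA currents, had 0 of 8 genes under 0.05, with *Wnk1*, a kinase that controls chloride cotransporters, at -0.24 (-0.54 to 0.06).

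Voltage-gated channels held few genes under that threshold. *Scn2b*, an auxiliary subunit of neuronal sodium channels, was the 1 of 9 sodium channel genes under an unadjusted p of 0.05, at 157 to 317 CPM (median 202) pre-KD and 107 to 237 CPM (median 135) post-KD, lower for 9 of 10 donors (log2 fold change -0.45, SE 0.18, p = 0.0135). In the frontal cortex *Scn2b* was on the other side, 0.32 (SE 0.14, p = 0.0233). The difference between regions in the *Scn2b* change was -0.82 with an adjusted p of 1 in the test with a term for each cohort, and -0.76 with an adjusted p of 0.0480 in the test without it. Without donors 9 and 10 the hippocampal *Scn2b* difference was -0.25 with p = 0.218, and its p was also above 0.05 without donor 10 alone. The pore-forming *Scn2a* was -0.12 (-0.39 to 0.15). Among 30 potassium and HCN channel genes 2 were under 0.05, both higher post-KD: *Kcnb2*, a delayed rectifier, ranged over 15.6 to 47.3 CPM (median 45.7) and 20.7 to 136 CPM (median 60.5) (p = 0.0238, 0.0977 with the block), and *Kcnma1*, the pore of large-conductance calcium-activated channels, had medians of 233 and 302 CPM (p = 0.0467, 0.0530 with the block). Of 15 calcium channel genes 0 were under 0.05 without the block and 1 with it, *Cacna1a* of the P/Q-type channel, higher for 9 of 10 donors (log2 fold change 0.30, p = 0.0662, 0.0451 with the block).

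Of 34 genes of axon growth and neuronal development 5 (14.7%, beside 3.18% of all 4653) were under an unadjusted p of 0.05, 1 higher and 4 lower post-KD, and 6 with the donor block, *Unc5c*, a netrin receptor, among them (0.0466, and 0.210 without it). Beside *Sema6a*, the members under 0.05 were lower post-KD. *Slit1*, a repulsive axon guidance ligand, ranged over 15.4 to 87.7 CPM (median 40.9) pre-KD and 0 to 52.8 CPM (median 23.1) post-KD (log2 fold change -0.96, p = 0.0265). *Epha5*, an ephrin receptor, had medians of 622 and 457 CPM (p = 0.0167, 0.00273 with the block), *Stmn4*, a tubulin-binding stathmin, 188 and 136 CPM (p = 0.0187), and the cell adhesion molecule *L1cam* 117 and 71.9 CPM (p = 0.0340). The list median was -0.07, and *Map1b*, the microtubule-associated protein with the most counts in the list, was -0.14 (-0.34 to 0.06).

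The study places its hippocampal differences in RNA processing, translation, cellular stress, TORC1 signalling and oxidative phosphorylation, and lists of such genes are described in turn. A list median does not bear on which terms were enriched among called genes. Of 73 spliceosome and mRNA processing genes 42 were higher and 31 lower (median 0.02); 1, *Cwc22*, was higher at an unadjusted p under 0.05 and those lower included the RNA-binding splicing regulator *Rbfox2* (median 217 CPM pre-KD and 142 CPM post-KD, p = 0.0222) and the nonsense-mediated decay kinase *Smg1* (116 and 82.9 CPM, p = 0.0371). Cytosolic ribosomal proteins, 72 genes with a median of -0.04, held 1 higher, *Rps10* (181 and 240.4 CPM, p = 0.0441), and 1 lower, *Rpl21* (243 and 188 CPM, p = 0.0247). Among 46 translation factors and tRNA synthetases 1 was under 0.05, the histidyl-tRNA synthetase *Hars*, with medians of 60.6 and 40.5 CPM (p = 0.0160, 0.0871 with the block). The 28 genes of mTORC1 and nutrient signalling had 0 under 0.05 (median -0.05).

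Respiratory chain and ATP synthase subunits encoded in the nucleus numbered 72, of which 34 were higher and 38 lower (median -0.01), and 68 had intervals within a 2-fold difference. Under an unadjusted p of 0.05 were *Atp5o*, of the ATP synthase stalk, at 190.2 to 341 CPM (median 259.9) pre-KD and 129 to 261 CPM (median 201) post-KD (log2 fold change -0.40, p = 0.0157), the complex I subunit *Ndufs8*, with medians of 59.7 and 41.5 CPM (p = 0.0382), and the complex IV subunit *Cox5b*, with 171 and 214 CPM (p = 0.0327). The first pair were lower and *Cox5b* higher post-KD. With the block *Uqcrb* of complex III and *Atp5j2* of the ATP synthase were also under 0.05, both higher (0.0215 and 0.0450, against 0.0711 and 0.0524 without it). In the frontal cortex *Atp5o* was 0.25 (p = 0.0463), and its change differed between regions by -0.66 with an adjusted p of 1. Other fuel pathways had 0 genes under 0.05: 15 of glycolysis and glucose uptake (median -0.04), 20 of pyruvate dehydrogenase and the TCA cycle (-0.01) and 7 of fatty acid oxidation and ketone body use (0.08), including *Oxct1*, which activates ketone bodies for oxidation, at -0.06 (-0.37 to 0.25) and *Bdh1*, which oxidizes beta-hydroxybutyrate, at 0.47 (-0.33 to 1.28). Of 19 genes of glutathione metabolism and antioxidant defence 0 were under 0.05 (median -0.01), with *Sod1*, a superoxide dismutase, within -0.29 to 0.29 and *Txn1*, thioredoxin, at -0.53 (-1.12 to 0.06). In sterol and fatty acid synthesis 1 of 16 was under 0.05, the sterol demethylase *Cyp51*, at 27.5 to 124 CPM (median 53.0) pre-KD and 10.4 to 55.9 CPM (median 33.9) post-KD (p = 0.0183).

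Stress and protein quality genes gave few differences. *Atf4*, the transcription factor of the integrated stress response, ranged over 49.4 to 143 CPM (median 90.6) pre-KD and 30.8 to 126 CPM (median 57.4) post-KD, lower for 8 of 10 donors (log2 fold change -0.60, SE 0.27, p = 0.0266), and its p was above 0.05 without donor 1, 4, 7 or 8. Of the 9 genes of that list averaging 50 counts, 6 higher and 3 lower with a median of 0.16, *Atf4* was the 1 under 0.05, with *Slc38a2*, an amino acid transporter that ATF4 induces, at -0.04 (-0.44 to 0.37). Of 35 chaperones 1 was under 0.05, *Hsp90ab1*, a cytosolic HSP90, with medians of 2125 and 1934 CPM (log2 fold change -0.21, p = 0.0356), and of 40 proteasome and ubiquitin genes 0, with *Psma4* at p = 0.0565. In clathrin endocytosis and the lysosome 2 of 35 were under 0.05, both higher post-KD: *Ctsb*, cathepsin B, ranged over 95.7 to 195 CPM (median 139) and 116 to 264 CPM (median 192) (log2 fold change 0.43, p = 0.0210), and *Ap2m1*, of the clathrin adaptor AP-2, had medians of 69.9 and 105 CPM (p = 0.0377). *Ctsb* was also higher post-KD in the frontal cortex of these cohorts (0.50, p = 0.000994, adjusted p = 0.122). Among 33 chromatin and histone modifiers, *Ezh1*, a histone methyltransferase of Polycomb, was higher (medians 40.2 and 69.7 CPM, p = 0.0252) and *Cfdp1* lower.

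The remaining function lists, other than that of mitochondrially encoded transcripts described below, had at most 1 gene under 0.05. In the circadian clock list this was the kinase *Csnk1e* (138 CPM pre-KD and 96.9 CPM post-KD, p = 0.0335, 0.0621 with the block), lower, among 15 genes. In the neuromodulator list it was *Gnaz*, among 10. The 12 neurotrophins and neuropeptides, of which 2 were higher and 10 lower, had 0 under 0.05, with *Npy*, an inhibitory peptide of interneurons, at -0.36 (-0.83 to 0.11) and *Cck*, cholecystokinin, at -0.06 (-0.33 to 0.20). The summed level of these 12 genes was 2041 to 2591 CPM (median 2523) pre-KD and 2029 to 2448.5 CPM (median 2312) post-KD, lower post-KD in all 10 donors while the ranges overlapped. No other function or marker list had a summed level on the same side in all 10 donors, and no test was made of these sums. Lists with 0 genes under 0.05 also included 15 genes of the cell cycle and DNA replication, 14 of Wnt, BMP and Notch signalling, 9 of the glucocorticoid response and metallothioneins, and 8 of GPI anchor synthesis and telomerase RNA localisation. Immune genes were sparse at this depth: 3 of 30 interferon and MHC class I genes and 6 of 33 cytokine and complement genes averaged 50 counts, and 0 of these were under 0.05.

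Of the genes named in the hippocampal network of the published work, *Atf4*, *Gnaz*, *Cfdp1* and *Rprd2* averaged at least 50 counts. All 4 were lower post-KD at an unadjusted p under 0.05 without the block and 3 with it, and since they were chosen on these libraries their direction is not independent evidence. *Gnaz*, the alpha subunit of Gz that inhibits adenylyl cyclase, ranged over 89.8 to 200.4 CPM (median 135) pre-KD and 64.8 to 143 CPM (median 89.7) post-KD, lower for 9 of 10 donors (log2 fold change -0.56, SE 0.21, p = 0.00840, adjusted p = 0.130). *Cfdp1*, a chromatin-associated protein, ranged over 65.4 to 185 CPM (median 109.9) and 38.0 to 138 CPM (median 71.8), lower for 9 donors (p = 0.0129, and 0.0791 without the 3 libraries of few detected genes). Together with *Atf4*, described above, both were lower for most donors while their ranges overlapped. *Rprd2*, which binds the tail of RNA polymerase II, ranged over 13.5 to 100.2 CPM (median 54.2) and 10.4 to 53.9 CPM (median 34.0) (p = 0.0470, 0.0935 with the block), and p was 0.05 or more without donor 1, 2, 3, 5, 7, 8 or 10. *Taf9b*, *Pxk* and *Mro* averaged 9.25, 29.8 and 12.5 counts and fell outside the rule, as did *Dusp12*, *Bmpr1b*, *Cmya5*, *Abcc9*, *Ufsp1* and *Tbx2*, also named there for their changes, which averaged 3.70 to 15.6 counts.

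Marker lists were then used to check the tissue and to describe cell types. Defining hippocampal markers were present: *Prox1*, the transcription factor of dentate granule cells, held 56.1 to 142 CPM (median 95.9) in pre-KD libraries, and the summed level of 12 granule cell markers was 506 to 788 CPM (median 539) pre-KD and 415 to 788 CPM (median 527) post-KD. Markers of CA1 cells summed to 296 to 481 CPM (median 369.6) and 287 to 590.3 CPM (median 446), and those of CA2 and CA3 cells to 525 to 762 CPM (median 625) and 476 to 837 CPM (median 574). Each marker of these 3 lists had counts in some library. Markers of neighbouring tissue were present too, at levels that varied widely between libraries of both conditions: choroid plexus markers summed to 776 to 2745 CPM (median 1706) pre-KD and 526 to 4651 CPM (median 1379) post-KD, and markers of striatal neurons to 141 to 471 CPM (median 232) and 70.0 to 305 CPM (median 214). Of 3 choroid plexus markers averaging 50 counts 0 were under an unadjusted p of 0.05, and with the block 1, *Sostdc1*, a secreted antagonist of BMP and Wnt, with medians of 40.5 CPM pre-KD and 20.2 CPM post-KD (p = 0.0206, and 0.0848 without the block). *Sostdc1* averaged 50 or more counts in the pre-KD libraries alone, so it met the rule through its higher condition. *Ttr*, the choroid plexus marker with the most counts, ranged over 682 to 2440 CPM (median 1511) pre-KD and 452 to 4213 CPM (median 1264) post-KD. *Ppp1r1b*, the striatal phosphoprotein DARPP-32, was lower post-KD at 31.4 to 114 CPM (median 82.8) against 18.8 to 90.4 CPM (median 41.7) (log2 fold change -0.64, p = 0.0322), and the part of striatal markers in other results was not tested.

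Markers of principal neurons differed in a few genes. *Prox1* was lower post-KD, 26.5 to 101 CPM (median 61.8), for 9 of 10 donors (log2 fold change -0.57, SE 0.25, p = 0.0256, 0.0291 with the block), with p above 0.05 without donor 1 or 7. The other granule cell markers averaging 50 counts, 6 with *Prox1*, were above p = 0.05, *Rasgrp1*, a Ras activator, at -0.21 (-0.58 to 0.16). Of 4 CA1 markers 3 were higher and 1 lower, at -0.35. Under 0.05 were 2 (50%, beside 3.18% of all 4653), both higher post-KD, *Pou3f1* and *Wfs1*, a membrane protein of the endoplasmic reticulum. *Wfs1* had medians of 29.9 and 51.7 CPM (log2 fold change 0.79, p = 0.0371, 0.0592 with the block). *Mpped1*, the CA1 marker with the most counts, was 0.17 (-0.27 to 0.61). Markers of CA2 and CA3 cells, 5 genes, and of forebrain excitatory neurons, 11 genes with *Nrgn*, a postsynaptic calmodulin-binding protein, at -0.09 (-0.25 to 0.07), had 0 under 0.05.

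Among 12 interneuron markers 10 were higher and 2 lower. *Calb2*, calretinin, ranged over 9.62 to 84.8 CPM (median 38.3) pre-KD and 25.1 to 129 CPM (median 51.7) post-KD, higher for 8 of 10 donors (log2 fold change 0.76, p = 0.0274). It also marks immature granule cells and thalamic neurons, and without donors 9 and 10 its difference was 0.21 with p = 0.589. Its p was also above 0.05 without donor 2, 4, 9 or 10 alone. In the frontal cortex *Calb2* was lower, -0.64 (p = 0.0360). *Sst*, somatostatin, the interneuron marker with the most counts, was -0.20 (-0.52 to 0.13), and the summed interneuron markers were 931 to 1360 CPM (median 1132) pre-KD and 966 to 1389 CPM (median 1229) post-KD.

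Glial and vascular markers held 1 gene under an unadjusted p of 0.05 without the block, *Olig1*, and 2 different ones with it, *Mal*, the myelin and lymphocyte protein, and *Cald1*, caldesmon. Astrocyte markers, 21 genes, had a median of 0.04 with all 21 intervals within a 2-fold difference and a summed level of 10528 to 12416 CPM (median 11538) pre-KD and 10680 to 12630 CPM (median 11603) post-KD, and *Glul*, glutamine synthetase, was 0.19 (-0.04 to 0.42). Myelin and oligodendrocyte markers, 13 genes, had a median of -0.03, with all 13 intervals within a 2-fold difference. *Mal*, one of them, had medians of 138 CPM pre-KD and 104 CPM post-KD (p = 0.0943, 0.0349 with the block). *Olig1*, a lineage factor placed in the precursor list, had medians of 53.8 CPM pre-KD and 38.1 CPM post-KD, the post-KD cohort being lower in 9 donors (log2 fold change -0.70, p = 0.0339, 0.0512 with the block). Of 22 microglial and macrophage markers 3 averaged 50 counts, *Cx3cr1*, the fractalkine receptor, at 0.52 (-0.20 to 1.24) and *Ctss*, cathepsin S, at -0.14 (-0.77 to 0.49), and the interval of *Cx3cr1* reached past a 2-fold difference. *Cald1*, in the pericyte list, had medians of 58.5 and 44.3 CPM and was lower in 9 of 10 donors (p = 0.0945, 0.0473 with the block). Endothelial, pericyte, fibroblast and blood markers had 0 genes under 0.05 without the block among 6, 3, 4 and 4, with haemoglobin *Hba-a1* at 176 to 552 CPM (median 331) pre-KD and 244 to 585 CPM (median 300.4) post-KD.

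**Figure D5:**
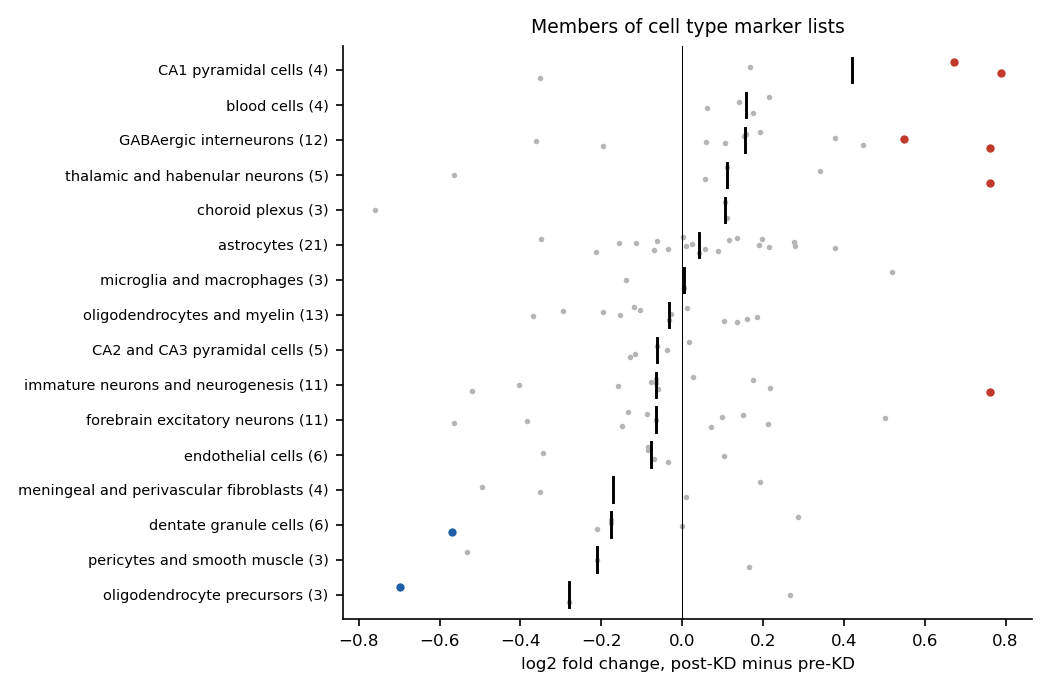
Log2 fold change, post-KD minus pre-KD, of marker genes averaging 50 or more counts in the 16 cell type lists with at least 3 such genes, 1 point per gene with a black bar at the list median. Points in colour were under an unadjusted p of 0.05, *Pou3f1* and *Wfs1* of CA1 cells higher and *Prox1* and *Olig1* lower among them.

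The genes with the most counts had small estimated differences. *Gm42418*, a noncoding locus that overlaps ribosomal RNA sequence, averaged 205908 counts and ranged over 81667 to 203796 CPM (median 130904) pre-KD and 91868 to 177345 CPM (median 116431) post-KD (log2 fold change -0.14, p = 0.0691, 2.53e-05 with the block, where its adjusted p was 0.444). With no filter on low counts the adjusted p of *Gm42418* was 0.000823 at the same difference. A paired exact test of its share of counts gave p = 0.551, with post-KD above pre-KD in 4 of 10 donors. The small edgeR p values of *Gm42418* are at odds with that spread between cohorts, and nothing is read from them. Mitochondrial 16S ribosomal RNA, *mt-Rnr2*, was lower post-KD by a small amount, at 49870 to 59730 CPM (median 52912) against 46002 to 55828 CPM (median 48740) (-0.09, p = 0.0356), and *mt-Cytb*, cytochrome b, higher post-KD (0.13, p = 0.0478). The p of *mt-Rnr2* was under 0.05 in 9 of 21 alternatives, was 0.181 in DESeq2, and was above 0.05 without donor 3, 4, 5, 6, 7 or 8, and that of *mt-Cytb* without donor 1, 2, 3, 4, 7 or 8. These 2 were 22.2% of a list of 9, beside 3.18% of all 4653. Among 9 mitochondrially encoded transcripts all 9 intervals lay within a 2-fold difference, with *mt-Nd4* at 0.07 and *mt-Rnr1* at -0.03. *Meg3*, the nuclear noncoding RNA with the most counts after *Gm42418*, was -0.04 (-0.17 to 0.09).

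The most variable genes within a condition, by SD of log2 CPM, included many with single libraries at or near 0. *Gm15772*, a processed pseudogene whose reads its parent gene may share, had the largest SD at 2.29 and ranged over 0 to 131 CPM (median 23.5) pre-KD and 0.837 to 107 CPM (median 34.0) post-KD. *Xist* followed at 2.26, with the cohorts of donors 9 and 10 lowest. *Cwc22* had 2.10, *Fndc10* 2.05, *Arid5b*, an AT-rich DNA-binding protein, 1.75, and *Exoc7*, of the exocyst, 1.73. *Ikzf5*, a zinc-finger protein, had 0 counts in the pre-KD library of donor 7 and 6 in the post-KD library of the same donor, against 52 to 199 in the other 18. *Gnb4*, a G-protein beta subunit, had 0 counts in the pre-KD library of donor 5 and the post-KD library of donor 6. In all, 199 of the 4653 genes had 0 counts in at least 1 library.

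Many p values above rose to 0.05 or more with few cohorts left out, which also leaves fewer libraries. Every gene given above with an unadjusted hippocampal p from 0.0157 to 0.05 without the block had a p of 0.05 or more with some single donor left out. Without donors 9 and 10 p was 0.05 or more for *Rbfox2* (0.0639), *Kcnb2* (0.0817), *Ezh1* (0.0924), *Csnk1e* (0.0780), *Olig1* (0.0830), *L1cam* (0.0828), *Wfs1* (0.0608), *Ap2m1* (0.0602) and *Ndufs8* (0.0536), beside *Gm26871*, *Gas5*, *Mier3*, *Scn2b* and *Calb2*. From *Rbfox2* to *Ndufs8* log2 fold changes moved little, that of *Ezh1* most (0.70 with all libraries, 0.60 without these donors). Those of *Gm26871* (-0.67 and -0.35), *Gas5* (-0.55 and -0.30), *Mier3* (0.97 and 0.66), *Scn2b* (-0.45 and -0.25) and *Calb2* (0.76 and 0.21) shrank. Without the 3 libraries of few detected genes p was 0.05 or more for *Atp5o* (0.0567), *Hars* (0.0634), *Ezh1* (0.103), *Atf4* (0.0739), *mt-Rnr2* (0.174), *Smg1* (0.0618), *Wfs1* (0.138), *Ap2m1* (0.0652), *Ndufs8* (0.0557), *Kcnma1* (0.122) and *Rprd2* (0.115), beside *Phip*, *Myh9*, *Nebl* and *Cfdp1*. Their log2 fold changes were all smaller there, by little for *Ndufs8* (-0.70 and -0.67) and *Smg1* (-0.49 and -0.45) and by more for *Phip* (-0.68 and -0.38) and *Nebl* (-0.70 and -0.45).

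Around the threshold of 50 counts, *Ddost*, *Zfp36l1* and *Lrrc59* averaged 50 to 50.1 and *Dohh*, *Taf15* and *Cxxc1* 49.95 counts, with log2 fold changes of 0.58, 0.45 and -0.10 inside and 0.22, 0.48 and 0.50 outside. For 370 genes only 1 condition averaged 50 or more, the pre-KD libraries in 276 and the post-KD libraries in 94, and 28 of the 370 (7.57%, beside 3.18% of all 4653) were under an unadjusted p of 0.05. These genes were set apart by the difference itself, so nothing is read from that share. *Cwc22*, *Mir124-2hg*, *Gm44562*, *Mier3*, *Gm44801*, *Cyp51*, *Slit1*, *Wfs1* and *Rprd2*, all described above, are among the 28, and each met the rule through its higher condition. The split of 276 and 94 is of raw counts, and the pre-KD libraries held a mean of 1610500 counts and the post-KD libraries 1454860.

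In the frontal cortex of the same cohorts 267 of the 4653 genes (5.74%, beside 9.68% of all genes tested there) had an unadjusted p under 0.05 for post-KD against pre-KD, 124 higher (2.66%) and 143 lower (3.07%), beside 148 in the hippocampus, and all genes tested there were split into 5.01% higher and 4.68% lower, and the regions came from the same cohorts. At an adjusted p under 0.05 in edgeR's test 1 gene (0.0215%, and 0.0056% of all tested there) passed, again *Cwc22*. At the unadjusted threshold both regions had 16 of the 4653 genes in common, 12 of them with the same sign, *Cwc22*, *Ctsb* and *Hsp90ab1* among them. Lists of 3.18% and 5.74% of the genes share some members without any common change. No agreement between regions is read from this overlap. The interaction test passed 3 of the genes at an adjusted p under 0.05 with a term for each cohort, *Gm42418*, *mt-Rnr2* and *mt-Nd4*, and 1 without that term, *Scn2b*. Frontal cortical *Gm42418* ranged over 90399 to 202307 CPM pre-KD and 105668 to 181920 CPM post-KD. Frontal cortical *mt-Nd4* ranged over 19769 to 37514 CPM pre-KD and 19935 to 26848 CPM post-KD. Beside such spreads between cohorts the calls of *Gm42418* and *mt-Nd4* are not read as established differences between regions. Of the 20 leading genes, *Pou3f1* was 0.40 in the frontal cortex (p = 0.0473), *Kctd4* -0.72 (p = 0.138) and *Phip* -0.23 (p = 0.152), while *Mir124-2hg* was -0.35 (p = 0.185) and *Sema6a* -0.12 (p = 0.637). The adjusted p of the difference between regions was 1 for each of these 5 and for *Cwc22*.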

How the data were processed

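Hippocampus and frontal cortex were profiled by RNA-seq in 20 recipient cohorts, 1 library per region and cohort. The values deposited by the authors are raw counts per gene: reads of 2 x 69 bases were aligned to mm10 with STAR 2.5.2a and assigned with HTSeq-count 0.6.0. The methods name a TruSeq kit, whereas the study's resource list names QuantSeq FWD and the aligner HISAT2, so the kit and its strandedness are not settled. The annotation release and strand setting are not given in the sources used here, and reads that match several genes can be lost or split. Gene positions and types were matched by gene ID to a GENCODE annotation of GRCm38 (47224 of 47643 IDs).

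Post-KD and pre-KD libraries were compared with edgeR 4.0.16 (quasi-likelihood test, TMM, genes with at least 10 counts summed over 20 libraries) and Benjamini-Hochberg adjustment over 17529 genes. Alternatives were a donor block, DESeq2 1.42.0, limma-voom 3.58.1 with quality weights, other scalings and filters, and leaving out each donor. CPM used TMM factors. Log2 fold changes are the coefficients of the edgeR model. Library measures were compared by permutation tests (100000 resamples) and the regions by an edgeR interaction test with 1 term per cohort. Whether edgeR's unadjusted p held its level for unchanged genes in these libraries was not tested. Its adjusted calls over all genes without the block may hold more unchanged genes than the threshold allows. Libraries held 1140756 to 1947416 counts, and no 2 libraries were identical.

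Cohorts with the same number share a stool donor, which pairs them by design, yet the correlation of paired deviations from the condition means ran from -0.07 to 0.05 and 0 of 10 exceeded 0.1. Genes were named by rule: those past the adjusted threshold, the 10 smallest p in each direction, those changed alike in all 10 donors, the 8 most variable, the 6 with the most counts, the genes of each list with the smallest p and with the highest mean CPM, neighbours of the count threshold, and genes the study names. List genes under an unadjusted p of 0.05, with or without the block, and *Ube3a* were named after their values were seen. The genes and lists were chosen with earlier results of these data known. P-values are meant to measure the spread between pooled cohorts. Those of edgeR for *Gm42418* did not, as described above. The edgeR intervals of the other genes with the most counts may likewise be too narrow for that spread. Results on a few genes are not reported here.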

Additional observations from a re-analysis of the deposited data

Results flagged for a closer look

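Among 82 groups of 10 libraries checked for a value far from the others by Dixon's criterion, 5 held one, and chance gives about 1 in 20. The highest post-KD library stood apart for *Mir124-2hg* (100.4 CPM, donor 6, next 66.3), for *Golga2* (157 CPM, donor 1, next 82.9), for *Gnaz* (143 CPM, donor 5, next 100.8) and for *Atf4* (126 CPM, donor 10, next 79.8). The highest pre-KD library stood apart for *mt-Rnr2* (59730 CPM, donor 4, next 55135). For 3 genes, all among those with the most counts, edgeR's interaction test gave an adjusted p under 0.05 for a change that differed between regions of the same cohorts: hippocampus minus frontal cortex was -0.15 on the log2 scale for *mt-Rnr2*, -0.18 for *Gm42418* and 0.16 for *mt-Nd4*. Levels of *Gm42418* and *mt-Nd4* spread widely between cohorts in both regions, so their calls are flagged and not read as established differences.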

How the results depend on the processing

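Of 133 named genes, the 39 under an unadjusted p of 0.05 kept their sign in all 21 alternatives, while 44 of the other 94 changed sign in at least 1. For the 20 leading genes p was 0.05 or more in 16 of 420 alternative values, with a highest p of 0.173, and 8 genes were always under 0.05. The number of genes past the adjusted threshold, 1 without the block, was 0 with the replicate block, in DESeq2, in DESeq2 with the block, in limma-voom, with the filterByExpr filter, with the 4653 genes tested alone and among genes of 100 or more counts, 4 with no filter on low counts (*Cwc22*, *Gm42418*, *Phip* and *Gm26871*), and 0 to 1 with a donor left out. The count of genes higher at an unadjusted p under 0.05, 64, was 54 with the block, 113 in DESeq2, 126 in DESeq2 with the block, 83 with filterByExpr and 32 at 100 or more counts, and 57 to 75 with a donor left out. The count of lower genes, 84, was 96 with the block, 143 in DESeq2 with the block, 147 in limma-voom, 73 with filterByExpr and 47 at 100 or more counts, and 68 to 109 with a donor left out. Intervals within a 2-fold difference numbered 2474 at 100 or more counts and 3518 to 3770 with a donor left out. Differences between regions at an adjusted p under 0.05 numbered 1 among the named genes without the cohort term, against 3. With a donor left out, the difference in total counts ran from -192299 to -85999.7, in the *Gm42418* share from -1.70 to -0.0857 and in the mitochondrial share from -0.03 to 0.31 percentage points, and in genes with a count from -819 to -93.7. The fewer genes at 100 counts lower those counts by construction, and the cause of the other shifts was not tested.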
